A study of Arabidopsis thaliana with 48 samples.

Results

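The genes described here encode the enzymes and partner proteins that write N6-methyladenosine (m6A) into Arabidopsis RNA, with MTA at the centre because it is the gene altered in the mutant line of the study. They are 8 of the 27655 genes in the count tables and were picked by gene identifier: MTA, MTB, FIP37, VIR, HAKAI, HIZ1, HIZ2 and FIO1. All 8 had enough reads to be tested in every assay that gave counts. m6A is the most common internal mark of plant mRNA, and most of it is placed near the 3′ end of transcripts by a large nuclear complex. In that complex MTA, the counterpart of animal METTL3, holds the active site and MTB, the counterpart of METTL14, forms a dimer with it. FIP37 and VIR are scaffold proteins, HAKAI is an E3 ubiquitin ligase, and HIZ1 and HIZ2 are zinc finger proteins that bind HAKAI. FIO1 is a separate methyltransferase, the counterpart of METTL16, which marks the U6 spliceosomal RNA. Loss of MTA stops embryo development, so plants without it can be grown only when MTA is supplied to the embryo.

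Rosette leaves came from 2 genotypes. WT is Col-0, the standard laboratory strain, and mta is proABI3:MTA/mta, a post-embryonic mutant in which the only source of intact MTA is a transgene under the embryo-active ABI3 promoter. Plants were 17 days old when watering of the drought group stopped for 12 days, and control plants of both genotypes were watered throughout. Each of the 4 groups was profiled by 4 assays with 3 libraries each, 48 libraries in all. The mRNA libraries are the input of the m6A immunoprecipitation and so come from fragmented poly(A) RNA. The polysomal libraries come from pooled gradient fractions with several ribosomes per transcript, and GMUCT libraries hold RNA with a free 5′ monophosphate, which reads uncapped, decaying transcripts. m6A immunoprecipitation was available as peak lists. Whether the 3 libraries of a group stem from different plants is not stated in the labels, and a p-value here reflects library-to-library spread, which could be technical. Levels are in CPM (each count divided by its TMM-scaled library size on the usual per-library scale), and fold changes are log2 values ± SE from edgeR's quasi-likelihood test, with Benjamini-Hochberg adjusted p-values over all genes tested and a threshold of 0.05.

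Total counts ran from 1504013 to 5503037 in mRNA libraries, from 35833742 to 43032763 in polysomal libraries and from 1313457 to 12421168 in GMUCT libraries. The shallowest mRNA library was WT control replicate 3, which had 11.7% of its counts on plastid genes. Leaf identity was clear from the leaf markers, with 17003 CPM of CAB1 in watered WT leaves. All 5 leaf markers fell with drought in both genotypes, where 35.3% of all genes tested fell in each. All 5 were higher in mta than in WT in control (8.5% of all genes were). In drought 4 were higher and 1 lower in mta (26.6% and 26.1% of all genes). The part of the leaf markers in the results was not tested. Of 6 seed markers 0 had enough mRNA reads for a test, and the highest, FUS3, averaged 0 to 0.65 CPM in the 4 groups. PYK10 was the one testable root marker of 3, and STM the one testable flower or meristem marker of 5, at 130 and 26.8 CPM in watered WT leaves. In bulk leaves a change in the number of cells of a type and a change of RNA per cell cannot be told apart. In mta plants under drought, mRNA changes also moved with the length of the gene. With genes split by span into 5 equal groups, the median log2 difference from WT in drought was 0.37 for the shortest group and -0.48 for the longest. Polysomal drought changes moved with length in both genotypes, upward for long genes. Their medians in the shortest and longest groups were -0.59 and 0.32 in WT, and -0.26 and 0.30 in mta. VIR, with a span of 12086 bases, is longer than 99.8% of genes, HIZ2 than 94.6% and MTB than 92.1%, and values with the length trend removed are given for results of these genes.

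The members lie on all 5 chromosomes of the TAIR10 build, and counts cover each gene from start to end, introns included. MTA (AT4G10760) lies on chromosome 4 at 6619817 to 6623381 on the minus strand, and MTB (AT4G09980, EMB1691 in RefSeq) on the same chromosome at 6247735 to 6252314, also on the minus strand. FIP37 (AT3G54170) lies on chromosome 3 at 20056664 to 20059583 on the plus strand. VIR (AT3G05680, EMB2016 in RefSeq) takes up 1660523 to 1672608 of the same chromosome on the minus strand. HAKAI (AT5G01160) lies on chromosome 5 at 53856 to 56052 on the plus strand, and HIZ2 (AT5G53440) at 21683144 to 21688273 on its minus strand. HIZ1 (AT1G32360) lies on chromosome 1 at 11672766 to 11675387 and FIO1 (AT2G21070) on chromosome 2 at 9040852 to 9043651, both on the plus strand. HIZ2 shares 979 bases with AT5G53430 on the opposite strand, MTA shares 123 bases with AT4G10750 and MTB 58 with AT4G09970. Since strand was ignored in the GMUCT counts, those of HIZ2 may hold reads of its neighbour.

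In watered WT leaves the members differed in mRNA level. Per kilobase of gene span, HAKAI stood highest in the mRNA libraries at 14.6 ± 3.19 CPM per kb (SD, n = 3), followed by HIZ1 at 12.1 ± 1.4 and HIZ2 at 10.6 ± 0.77. These neighbours did not differ beyond their spread. VIR followed at 7.63 ± 1.18, MTB at 5.57 ± 0.0858, MTA at 5.13 ± 0.168 and FIP37 at 4.70 ± 0.434 CPM per kb. MTB and MTA, the dimer partners, did not overlap in any library, while MTA and FIP37 overlapped. FIO1 was lowest at 2.69 ± 0.429 CPM per kb. In polysomal libraries the order per kilobase was different: HIZ1 led at 15.5 ± 1.31, ahead of HAKAI at 7.14, FIP37 at 5.33, MTA at 4.34 and MTB at 3.20 CPM per kb, with HIZ2 at 2.24, FIO1 at 2.07 and VIR at 1.90. Spans include introns, and no level per kilobase of exon was computed.

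**Figure D1:**
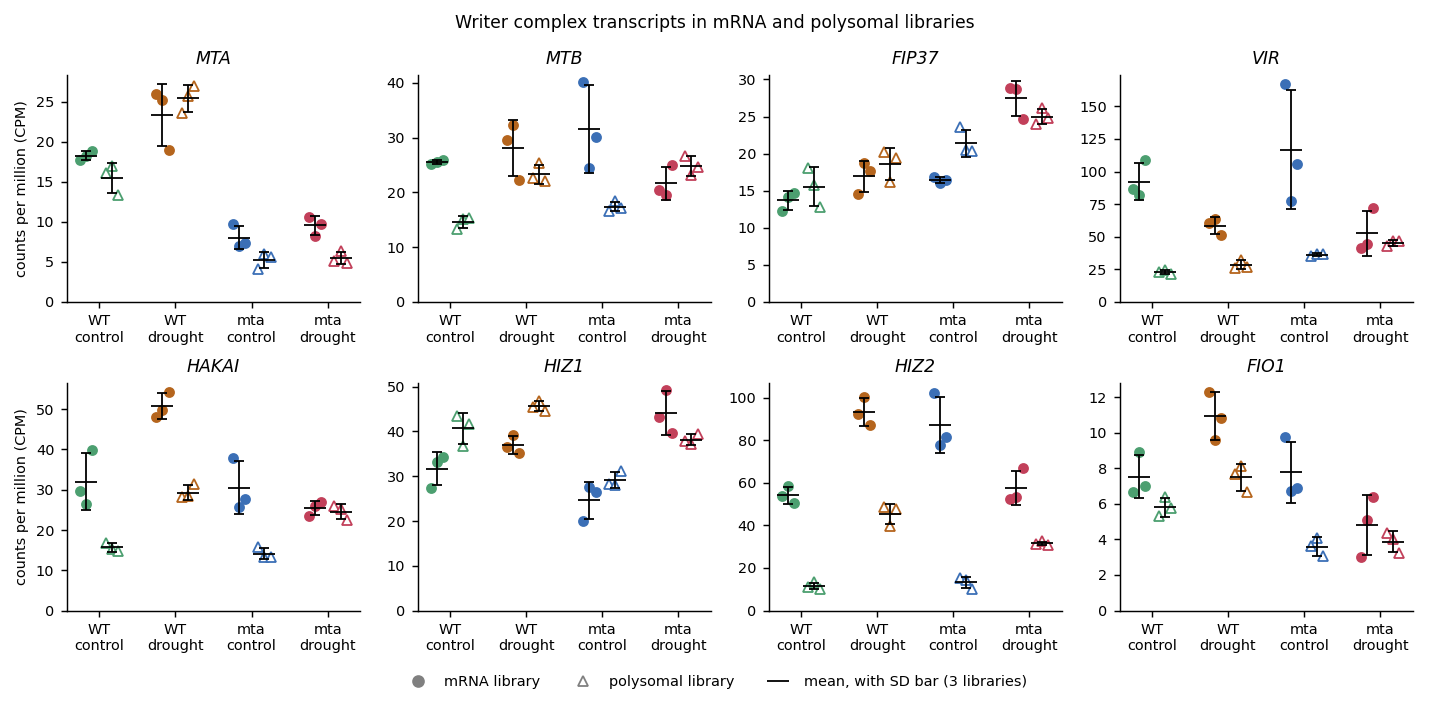
Level of each writer gene (CPM, linear axis from 0) in the 3 mRNA libraries (filled circles) and 3 polysomal libraries (open triangles) of each group, with the mean and SD. MTA is lower in both mta groups, and HIZ2 mRNA is higher in WT drought and mta control than in WT control and mta drought, while its polysomal level is higher in drought in both genotypes.

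MTA was the member that separated the genotypes in every counted assay. In the mRNA libraries it stood at 17.7, 18.2 and 18.9 CPM in WT control (98, 90 and 27 reads) and at 9.75, 6.97 and 7.40 CPM in mta control (48, 26 and 42 reads). Under drought it was at 26.0, 25.3 and 18.9 CPM in WT and at 10.6, 8.26 and 9.79 CPM in mta. Every mta library lay below every WT library of the same watering, and watered mta leaves kept 0.447 of the WT level (log2 fold change -1.16 ± 0.19, adjusted p = 9.6e-05). Droughted mta leaves kept 0.411 of it (-1.28 ± 0.18, adjusted p = 3.07e-06). Polysomal MTA was at 16.1, 16.9 and 13.4 CPM in WT control and 4.13, 5.96 and 5.58 in mta control. Drought brought it to 23.6, 25.7 and 26.9 CPM in WT and to 5.14, 6.38 and 4.90 CPM in mta. Here the groups of the 2 genotypes lay further apart, with log2 fold changes of -1.56 ± 0.15 in control and -2.22 ± 0.15 in drought (adjusted p = 5.81e-09 and 3.8e-12). GMUCT MTA was at 14.5, 13.6 and 15.2 CPM in WT control and 5.57, 6.05 and 5.57 in mta control. In drought it was at 13.8, 13.5 and 14.1 CPM in WT and 4.08, 3.93 and 4.71 in mta. It fell by 1.32 ± 0.17 in control and by 1.64 ± 0.24 in drought (adjusted p = 2.08e-06 and 4.71e-06), again with no overlap of the genotypes. The gene-level counts do not separate reads of the transgene from reads of the mutated gene.

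Drought itself raised polysomal MTA in WT by 0.72 ± 0.14 (adjusted p = 7.43e-05), and in mta the value was 0.07 ± 0.16 (adjusted p = 0.72). The difference between these drought effects was -0.65 ± 0.21 (adjusted p = 0.0142), and it missed the threshold without mta control polysomal replicate 2. In the mRNA libraries the drought values of MTA were 0.36 ± 0.16 in WT (adjusted p = 0.0542) and 0.24 ± 0.21 in mta (adjusted p = 0.3). The 3 WT drought libraries lay above the 3 WT control libraries by a narrow margin. The lowest drought library was at 18.94 CPM and the highest control library, with 27 reads, at 18.91 CPM. Such a separation was found for 70.4% of all genes. The WT value passed the threshold with a replicate block, with the gene length trend removed and with no filter on low counts, and the mta value was 0.50 (adjusted p = 0.034) with the length trend removed.

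The promoter that drives the transgene belongs to ABI3 (AT3G24650), a regulator of seed maturation. ABI3 had 0 counts in all 12 mRNA libraries, which allows up to 3 counts in each. Polysomal libraries held 0 counts of it, except for 4 in mta drought replicate 1. In GMUCT libraries, by contrast, its span held 0, 2 and 0 counts in WT control and 1, 1 and 0 in WT drought, against 22, 50 and 35 in mta control and 9, 13 and 32 in mta drought. The mta libraries were at 4.54 to 7.34 CPM and did not overlap WT, a pattern that 39.5% of genes tested in GMUCT showed between the genotypes in control and 45.7% in drought. Since GMUCT counts take both strands, these reads are not assigned to a strand.

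The drought response of several other members differed between the genotypes. In mRNA, drought changed 3 of 8 members in WT, 2 upward and 1 downward, where 67.9% of all genes tested changed (32.6% up, 35.3% down). In mta drought changed 6, 2 upward and 4 downward, against 70.3% of all genes (35.1% up, 35.3% down). Against WT, 1 member was higher and 1 lower in mta in control, where 17.8% of all genes differed (8.5% higher, 9.28% lower). In drought 1 was higher and 4 were lower, against 52.7% of all genes (26.6% higher, 26.1% lower). The drought effect differed between genotypes for 5 members, 1 higher and 4 lower in mta, where 37.6% of all genes differed (19.6% higher, 18.0% lower). Libraries of the compared groups did not overlap for 6 members with drought in WT (70.4% of all genes) and 5 with drought in mta (72.2%). They did not overlap for 3 between genotypes in control (30.9%) and 6 in drought (60.7%). The median log2 fold change of the 8 was 0.35 for drought in WT and -0.41 for drought in mta, against -0.01 and -0.01 over all genes. With the length trend removed 6 of 8 members were past the threshold for drought in WT, where 12424 of 17666 genes were. With no filter on low counts 5 members were, against 12882 of 22916 genes.

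MTB mRNA was at 25.1, 25.5 and 25.9 CPM in WT control and 29.6, 32.4 and 22.3 in WT drought, groups that overlapped. In mta it was at 40.2, 24.4 and 30.1 CPM in control and 20.5, 19.4 and 25.0 in drought. The mta groups also overlapped, and control replicate 1 stood highest. MTB fell with drought in mta by 0.55 ± 0.17 (adjusted p = 0.00607), a call that was lost without mta control mRNA replicate 1 and, at -0.09 (adjusted p = 0.586), with the length trend removed. The difference of its drought effects, -0.69 ± 0.24 (adjusted p = 0.0286), missed the threshold when any 1 of 7 mRNA libraries was left out and was -0.33 (adjusted p = 0.247) with the length trend removed. Polysomal MTB rose in both genotypes instead, by 0.67 ± 0.10 in WT (adjusted p = 2.35e-06) and by 0.51 ± 0.10 in mta (adjusted p = 8.68e-05), with every drought library above every control library. These values were 0.50 and 0.34 with the length trend removed, both past the threshold.

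The scaffold protein FIP37 was at 12.3, 14.2 and 14.7 CPM of mRNA in WT control and 14.6, 18.7 and 17.6 in WT drought. In mta it was at 16.9, 16.1 and 16.4 CPM in control and 28.8, 28.8 and 24.7 in drought, the highest values of the 12 libraries. It rose with drought in mta by 0.73 ± 0.14 (adjusted p = 7.37e-05), and in WT the value was 0.33 ± 0.16 (adjusted p = 0.0727). The difference between these effects, 0.41 ± 0.21, did not pass (adjusted p = 0.14). In drought FIP37 mRNA was 0.70 ± 0.14 higher in mta than in WT (adjusted p = 0.000255). Polysomal FIP37 was higher in mta in both regimes, by 0.46 ± 0.12 in control and 0.43 ± 0.12 in drought (adjusted p = 0.00314 and 0.00352).

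VIR, the largest scaffold protein, was at 86.2, 82.0 and 108.6 CPM of mRNA in WT control and 60.6, 63.4 and 51.6 in WT drought, with no overlap. In mta it was at 167.1, 77.3 and 105.9 CPM in control and 41.2, 44.2 and 72.0 in drought. Its mRNA fell with drought by 0.63 ± 0.22 in WT (adjusted p = 0.0146) and by 1.16 ± 0.21 in mta (adjusted p = 5.44e-05). The WT call was lost without WT control mRNA replicate 3, without WT drought mRNA replicate 3 and with DESeq2. With the length trend removed the WT value was -0.52 (adjusted p = 0.000605) and the mta value -0.08 (adjusted p = 0.545). Polysomal VIR was at 23.0, 24.7 and 21.3 CPM in WT control against 35.0, 36.6 and 37.1 in mta control, and at 26.0, 32.2 and 27.0 in WT drought against 42.7, 46.6 and 46.8 in mta drought. It was higher in mta by 0.66 ± 0.09 in control and by 0.68 ± 0.09 in drought (adjusted p = 1.1e-06 and 2.8e-07), at 0.62 and 0.97 with the length trend removed. Drought raised it by 0.30 ± 0.09 in WT and 0.33 ± 0.09 in mta (adjusted p = 0.0033 and 0.00163), but these directions flipped to -0.54 and -0.19 with the length trend removed, and the mta call was also lost without mta drought polysomal replicate 3.

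HAKAI, the ubiquitin ligase of the complex, had a drought effect on its mRNA that differed between the genotypes. Its mRNA was at 29.6, 26.5 and 39.9 CPM in WT control and 48.1, 49.7 and 54.3 in WT drought. In mta it was at 38.0, 25.8 and 27.7 CPM in control and 23.5, 25.8 and 26.9 in drought. Only the WT drought group stood apart from the other 3, all of which overlapped. Drought raised it in WT by 0.74 ± 0.15 (adjusted p = 0.000143), while the mta value was -0.27 ± 0.15 (adjusted p = 0.126). The effects differed by -1.01 ± 0.21 (adjusted p = 0.000754), and the call held without each of the 12 mRNA libraries in turn. With the length trend removed the mta value was -0.42 (adjusted p = 0.0254). Polysomal HAKAI rose in both genotypes, by 0.90 ± 0.10 in WT (adjusted p = 2.13e-08) and 0.80 ± 0.10 in mta (adjusted p = 2.28e-07), and the difference of -0.11 ± 0.15 did not pass (adjusted p = 0.595). In GMUCT libraries HAKAI had a drought rise in WT too, 0.78 ± 0.24 (adjusted p = 0.00659), lost without WT drought GMUCT replicate 3.

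HIZ1 took the other direction in mRNA, with the higher drought effect in mta. It was at 27.5, 33.2 and 34.3 CPM in WT control, 36.5, 39.3 and 35.2 in WT drought, 19.9, 27.6 and 26.4 in mta control and 43.2, 49.3 and 39.6 in mta drought. The mta groups did not overlap, and HIZ1 rose there by 0.84 ± 0.14 (adjusted p = 1.09e-05), against 0.25 ± 0.14 in WT (adjusted p = 0.116). The difference of 0.59 ± 0.19 (adjusted p = 0.0202) missed the threshold without WT control replicate 2, mta control replicate 1 or mta drought replicate 2 of the mRNA libraries. Polysomal HIZ1 was lower in mta than in WT in both regimes, by -0.48 ± 0.08 in control and -0.26 ± 0.08 in drought (adjusted p = 1.35e-05 and 0.00544).

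HIZ2, the zinc finger protein taken as the plant counterpart of animal ZC3H13, showed opposite drought effects on its mRNA in the 2 genotypes. Its mRNA was at 53.7, 58.3 and 50.4 CPM in WT control and 92.5, 100.2 and 87.0 in WT drought, a rise of 0.77 ± 0.12 (adjusted p = 1.03e-05). In mta it was at 102.1, 77.8 and 81.6 CPM in control and 52.6, 53.6 and 66.8 in drought, a fall of 0.60 ± 0.12 (adjusted p = 0.000147). No groups overlapped in either comparison, and the effects differed by -1.37 ± 0.17 (adjusted p = 2.01e-06). With the length trend removed the mta value was -0.05 (adjusted p = 0.671) and the difference -0.91 (adjusted p = 1.85e-05). The fall in mta was thus not called under that setting and the difference was. Watered mta leaves had more HIZ2 mRNA than watered WT leaves, by 0.67 ± 0.12 (adjusted p = 0.000381), and droughted ones less, by -0.69 ± 0.12 (adjusted p = 5.02e-05). Removing the length trend gave 0.63 (adjusted p = 4.99e-05) and -0.28 (adjusted p = 0.0188).

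Polysomal HIZ2 had the largest drought change of any member in any assay. It was at 11.1, 13.3 and 10.1 CPM in WT control and 48.5, 39.7 and 47.9 in WT drought, and at 15.4, 14.1 and 10.1 CPM in mta control and 31.4, 32.5 and 31.0 in mta drought. All drought libraries lay above all control libraries. The rise was 1.98 ± 0.13 in WT (adjusted p = 3.83e-13) and 1.26 ± 0.13 in mta (adjusted p = 2.26e-09), and it was smaller in mta by 0.72 ± 0.18 (difference of -0.72, adjusted p = 0.00154). After removal of the length trend the rises were 1.74 and 1.05 and the difference -0.69, all past the threshold.

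FIO1, the U6 methyltransferase outside the complex, had few reads. Its mRNA was at 6.69, 8.91 and 7.003 CPM in WT control, with 37, 44 and 10 reads, and at 12.3, 9.61 and 10.8 in WT drought. In mta it was at 9.75, 6.71 and 6.87 CPM in control and 3.03, 5.06 and 6.36 in drought. In drought all mta libraries lay below all WT libraries, with a log2 fold change of -1.18 ± 0.26 (adjusted p = 0.000594), and the difference of drought effects was -1.21 ± 0.36 (adjusted p = 0.0113). Drought in mta gave -0.69 ± 0.27 (adjusted p = 0.0268), lost without mta control replicate 1 or mta drought replicate 1 of the mRNA libraries. Polysomal FIO1 was lower in mta in both regimes, by -0.69 ± 0.20 in control and -0.95 ± 0.20 in drought (adjusted p = 0.00799 and 0.000287).

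**Figure D2:**
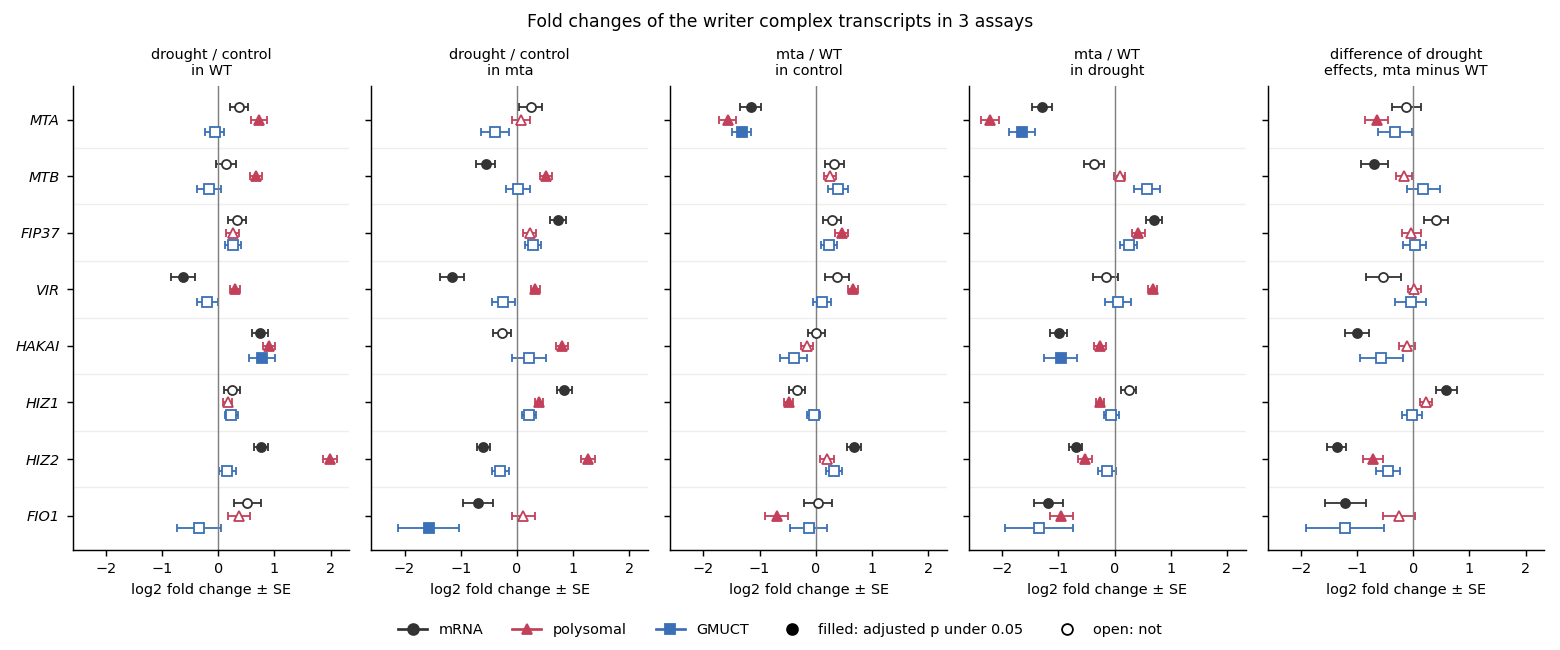
Log2 fold change ± SE of each writer gene in mRNA (circles), polysomal (triangles) and GMUCT libraries (squares), 1 panel per comparison; filled symbols passed an adjusted p of 0.05. MTA lies left of 0 in all 3 assays in both comparisons of mta with WT, and HIZ2 mRNA and polysomal symbols lie on opposite sides of 0 for drought in mta, though its mRNA value moves from -0.60 to -0.05 with the length trend removed.

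In polysomal libraries the members past the threshold for drought all rose, before removal of the length trend. In WT 5 of 8 rose and 0 fell (36.3% of all genes rose and 40.1% fell, 76.4% together), with 7 of 8 under an unadjusted p of 0.05 and 5 called by DESeq2. In mta 5 rose and 0 fell (37.8% of all genes rose and 32.8% fell, 70.6% together), with 5 under an unadjusted p of 0.05 and 5 called by DESeq2. VIR is among the risers in both genotypes and is the one whose direction flipped with the length trend removed. Its values were then -0.54 in WT, a call downward (adjusted p = 1.67e-05), and -0.19 in mta (adjusted p = 0.073). The median of the 8 was 0.52 in WT and 0.36 in mta, against -0.06 and 0.06 over all genes. Against WT, 2 members were higher and 3 lower in mta in control, where 40.1% of all genes differed (19.1% higher, 21.0% lower). In drought 2 were higher and 5 lower, against 59.2% (31.6% higher, 27.6% lower). The HAKAI value among these, -0.26 ± 0.10 (adjusted p = 0.033), was lost without WT drought polysomal replicate 3. The drought effect differed for MTA and HIZ2, both lower in mta, where 45.4% of all genes differed (26.5% higher, 18.9% lower). Libraries did not overlap for 7 members with drought in WT (78.0% of all genes), 6 with drought in mta (75.2%), 6 between genotypes in control (50.7%) and 7 in drought (63.9%).

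Polysome association is the polysomal level relative to the mRNA level on the log2 scale. In watered WT leaves it ran from -2.09 ± 0.14 for HIZ2 and -1.80 ± 0.18 for VIR to 0.38 ± 0.15 for FIP37 and 0.56 ± 0.11 for HIZ1. HIZ2 lay higher than only 2.23% of genes tested and VIR than 3.33%, while HIZ1 lay higher than 77.8%. Polysomal and mRNA libraries were prepared differently and counts cover introns, so values of different genes do not measure the share bound to ribosomes. The part of gene length in the low values of HIZ2 and VIR was not tested. Drought raised the association of 3 members in WT, where 18.8% of all genes changed (11.8% up, 6.93% down). Upward calls were 63.1% of all calls there and 45.9% with RLE scaling, and for drought in mta 60.7% and 49.9%. HIZ2 rose by 1.27 ± 0.18 (adjusted p = 8.55e-06), VIR by 0.98 ± 0.25 (adjusted p = 0.00551) and MTB by 0.59 ± 0.20 (adjusted p = 0.0388). The HIZ2 call held without each of the 24 libraries, and its value was 0.85 (adjusted p = 0.000444) with the length trend removed. The VIR call was lost without WT drought mRNA replicate 3 or WT drought polysomal replicate 2 and its value flipped to -0.025 with the length trend removed. The MTB call was lost without any 1 of 22 of the 24 libraries, with the length trend removed, with another library scaling and with DESeq2.

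In mta drought raised the association of 5 members and lowered that of 1, where 35.6% of all genes changed (21.6% up, 14.0% down). HIZ2 rose by 1.91 ± 0.18 (adjusted p = 9e-10), VIR by 1.54 ± 0.24 (adjusted p = 6.28e-06), MTB by 1.12 ± 0.20 (adjusted p = 2.89e-05) and HAKAI by 1.11 ± 0.19 (adjusted p = 1.29e-05). With the length trend removed HIZ2 stood at 1.08 and HAKAI at 1.19, both past the threshold, VIR flipped to -0.12 and MTB stood at 0.42 (adjusted p = 0.0897). FIO1 rose by 0.86 ± 0.33 (adjusted p = 0.0427), a call lost without any 1 of 20 libraries, and HIZ1 fell by 0.40 ± 0.15 (adjusted p = 0.0355), lost without mta drought mRNA replicate 2. HAKAI was the member whose drought effect on association differed between genotypes, by 0.90 ± 0.26 (adjusted p = 0.0228), where 9.59% of all genes differed (6.79% higher, 2.8% lower), and this call was lost without any 1 of 5 mRNA libraries.

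Between genotypes 0 members differed in association in control (8.26% of all genes did, 2.37% higher and 5.89% lower; 28.7% of calls were higher, and 42.2% with RLE scaling), with 2 under an unadjusted p of 0.05 and 0 called by DESeq2. In drought 2 were higher and 2 lower in mta, where 16.8% of all genes differed (8.72% higher, 8.03% lower). MTA was lower by -0.99 ± 0.24 (adjusted p = 0.00489), and HIZ1 by -0.57 ± 0.15 (adjusted p = 0.00656). HAKAI was higher by 0.68 ± 0.18 (adjusted p = 0.008) and VIR by 0.77 ± 0.25 (adjusted p = 0.0339), the last lost with DESeq2, with the length trend removed and without any 1 of 6 libraries. Both this measure and the uncapped share below have the mRNA libraries as denominator, so a change in those libraries moves both.

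**Figure D3:**
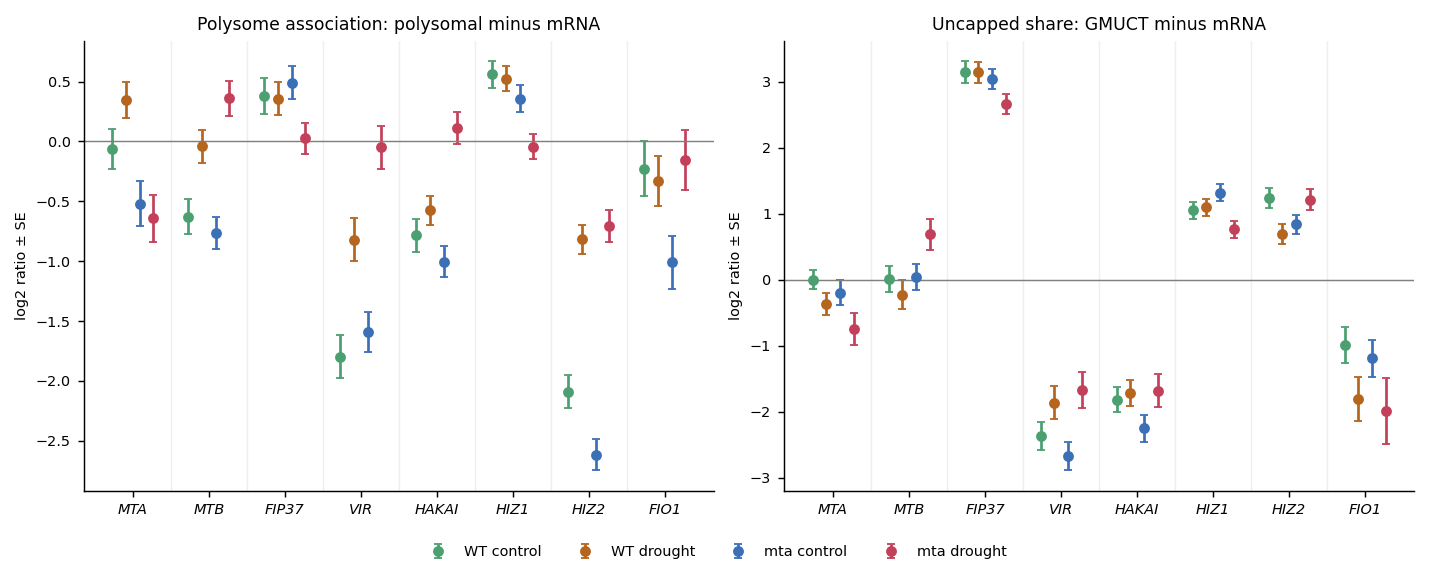
Polysomal relative to mRNA level (left) and GMUCT relative to mRNA level (right) of each writer gene in the 4 groups, log2 ratio ± SE from 1 fit over both assays with 3 libraries per group and assay. Polysome association of HIZ2 is lowest in watered leaves of both genotypes, and FIP37 has the highest uncapped share in all 4 groups.

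Uncapped RNA of the complex was dominated by FIP37 and the zinc finger genes. FIP37 was at 86.1, 95.1 and 103.3 CPM in the GMUCT libraries of WT control, against 12.3 to 14.7 CPM in the mRNA libraries. Its GMUCT level relative to mRNA was 3.15 ± 0.17 on the log2 scale, higher than for 95.0% of genes tested, and it stayed between 2.66 and 3.15 in the 4 groups. HIZ2 (1.24 ± 0.15, with its overlapping neighbour) and HIZ1 (1.06 ± 0.13) also lay above their mRNA level in watered WT leaves. HAKAI at -1.82 ± 0.19 and VIR at -2.37 ± 0.21 lay below it, and the ratios of MTA and MTB were 0.00 ± 0.15 and 0.01 ± 0.20.

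GMUCT levels changed for few members. In WT 1 rose with drought, HAKAI, where 61.3% of all genes changed (27.8% up, 33.5% down). In mta 1 fell, FIO1, against 54.5% (25.6% up, 28.9% down). Its value was -1.57 ± 0.55 (adjusted p = 0.018) with 1, 3 and 4 reads in the mta drought libraries, and the call was lost without mta control replicate 2 or mta drought replicate 3. In mta against WT, MTA fell in control, where 22.8% of all genes differed (12.1% higher, 10.7% lower). In drought MTA and HAKAI fell, against 38.4% (20.0% higher, 18.4% lower), HAKAI by 0.96 ± 0.30 (adjusted p = 0.0127), lost without WT drought GMUCT replicate 3. Libraries did not overlap for 2 members with drought in WT (66.8% of all genes), 3 with drought in mta (57.8%), 2 between genotypes in control (39.5%) and 3 in drought (45.7%), each a share of the members below that of all genes. The drought effect on GMUCT levels differed for 0 members (23.6% of all genes, 13.0% higher and 10.6% lower), with 1 under an unadjusted p of 0.05 and 0 called by DESeq2.

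The uncapped share, the GMUCT level relative to mRNA, changed with drought for 0 members in WT (4.58% of all genes changed, 2.93% up and 1.66% down), with 1 under an unadjusted p of 0.05 and 0 called by DESeq2. The split over all genes turned with the setting, since upward calls were 63.9% of all calls there, 26.6% with no filter on low counts and 32.6% with organelle genes left out. For drought in mta they were 54.7%, 33.9% and 39.1%. In mta VIR rose by 1.00 ± 0.35 (adjusted p = 0.0426) and HIZ1 fell by 0.55 ± 0.18 (adjusted p = 0.0331), where 19.1% of all genes changed (10.4% up, 8.64% down). VIR stood at 0.03 with the length trend removed and lost its call with organelle genes left out. Each call was lost without some single libraries, 8 for VIR and 7 for HIZ1. In control 0 members differed between genotypes (0.35% of all genes, 0.167% higher and 0.183% lower), with 0 under an unadjusted p of 0.05 and 0 called by DESeq2. In drought MTB was higher in mta by 0.91 ± 0.32 (adjusted p = 0.0471), where 16.5% of all genes differed (7.18% higher, 9.28% lower), a call lost without any 1 of 12 libraries and with the length trend removed. The drought effect on the share differed for 0 members (7.17% of all genes, 3.79% higher and 3.38% lower), with 3 under an unadjusted p of 0.05 and 1, HIZ2, called by DESeq2.

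The writer transcripts themselves carried m6A peaks, which the authors called in each library and on each strand. A member counted as marked in a group when at least 2 of the 3 libraries had a peak over its span on its strand. All 8 members were marked in WT control and in WT drought, where 55.7% and 58.5% of genes tested in mRNA were. In mta 6 members were marked in control and 5 in drought, against 48.9% and 44.0% of genes. HAKAI and HIZ1 were not marked in either mta group, and MTA was not marked in mta drought. In mta control MTA counted as marked through a region near its 5′ end, not through its WT region at the 3′ end. Of genes marked in WT, 21.3% were not in mta control and 27.9% not in mta drought. The depth behind the peak lists is unknown, and lists held 8269 to 12228 peaks in WT and 7746 to 12145 in mta.

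MTA had its peak at the 3′ end in WT. The region lies on chromosome 4 at 6619827 to 6620034 on the minus strand, with the median summit 56.5 bases from the 3′ end of the gene. It was called in 6 of 6 WT libraries, with fold enrichments of 6.63, 7.76 and 5.81 in control and 3.72, 4.48 and 7.68 in drought, and in 0 of 6 mta libraries. Of regions held by all 6 WT libraries, 1.69% were held by 0 mta libraries. A different region near the 5′ end of MTA, at 6623056 to 6623207 and 298 bases from its start, was called in 3 mta control libraries, 1 mta drought library and 1 WT control library, with fold enrichments of 3.47 to 6.74 in mta. The same imbalance, at least 4 mta and at most 1 WT library, was found in 2.23% of all 16917 regions. No test was made of single regions. MTA mRNA was itself lower in mta, and the part of that level in the peak calls was not tested. The peak lists do not separate RNA of the transgene from RNA of the mutated gene. Whether either RNA holds the 3′ end of the WT gene was not tested, so a missing peak there need not be a loss of m6A.

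The peaks of HAKAI and HIZ1 also lay close to the 3′ end. HAKAI had a region at 55670 to 55938 of chromosome 5, with the median summit 230 bases from the 3′ end, in 5 of 6 WT libraries and 1 of 6 mta libraries. HIZ1 had one at 11675083 to 11675261 of chromosome 1, with the median summit 188 bases from the 3′ end, in 6 of 6 WT libraries with fold enrichments of 5.05 to 9.67, and in 1 of 6 mta libraries at 4.54. Of regions held by all 6 WT libraries, 4.33% were held by at most 1 mta library. Of regions held by at least 5 WT libraries, 9.45% were held by at most 1 mta library. In control the HAKAI peak was called in 2 of 3 WT and 0 of 3 mta libraries. The genotype difference of HAKAI mRNA in control was 0.01 ± 0.15 and did not pass (adjusted p = 0.973 in edgeR's test). In drought HAKAI mRNA averaged 50.7 CPM in WT and 25.4 in mta. HIZ1 mRNA averaged 31.7 CPM in WT and 24.7 in mta in control, and 37.0 and 44.1 in drought. The part of mRNA level in the peak calls of HAKAI and HIZ1 was not tested.

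MTB, FIP37, FIO1 and HIZ2 kept a 3′ region in at least 2 of 3 libraries of both mta groups. The region of MTB 189 bases from its 3′ end was called in 12 of 12 libraries, with a median fold enrichment of 8.04 in WT and 6.32 in mta. FIP37 had a peak 225 bases from its 3′ end in 11 libraries, and FIO1 one 417 bases from its 3′ end in 11, with a median fold enrichment of 9.05 in WT and 5.20 in mta. HIZ2 had 2 regions in all 12 libraries, 566 bases from the 3′ end and 643.5 bases from the 5′ end. The median fold enrichment of the 3′ region was 10.9 in WT and 7.32 in mta, and that of the 5′ region 10.7 and 10.9. VIR had a peak 125 bases from its 3′ end in 3 WT control, 2 WT drought, 3 mta control and 1 mta drought libraries, so in mta drought it counted as marked through another region. Further inside its 3′ part, 837.5 bases from the end, VIR had that region in 1 WT and 5 mta libraries, 2 of them mta drought, and MTB one 883.5 bases from its 5′ end in 1 WT and 4 mta libraries. A fold enrichment is the authors' value for a peak within its own list.

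**Figure D4:**
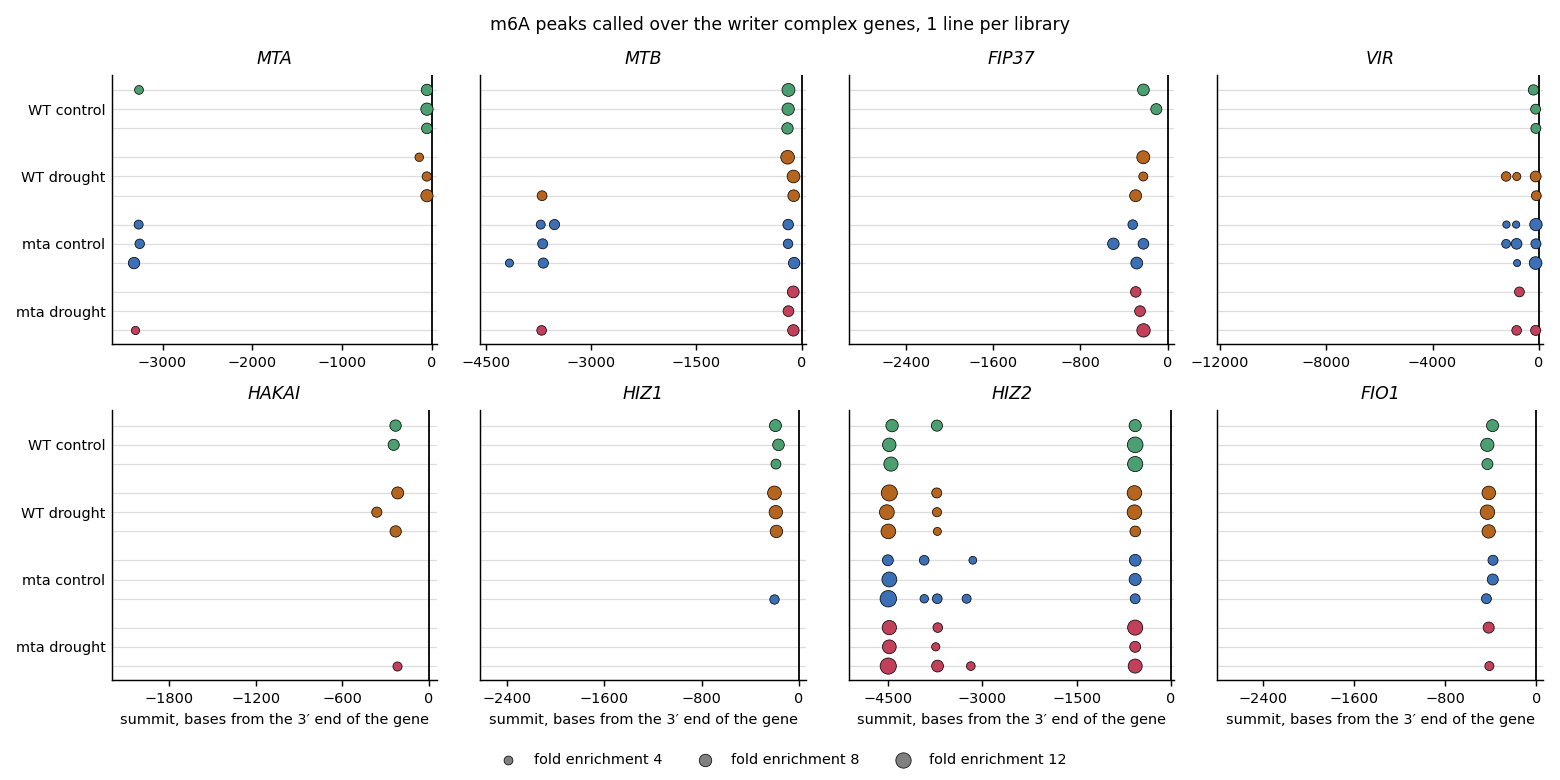
Summits of the m6A peaks over each writer gene, 1 horizontal line per library in the order of replicates 1 to 3, plotted by distance from the 3′ end of the gene (negative values lie upstream), with point area in proportion to fold enrichment. At the 3′ end of MTA all 6 WT libraries have a point and the 6 mta libraries have none, while MTB and HIZ2 have points there in all 12.

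Genes that read or remove the mark, and the cycle that supplies its methyl groups, were set beside the writers in the mRNA libraries. Of 12 readers, the YTH proteins of the ECT family with CPSF30, 4 rose and 4 fell with drought in WT and 2 rose and 5 fell in mta, where 67.9% and 70.3% of all genes changed, so these counts are at or below the share of all genes. ECT8 rose by 2.61 ± 0.11 in WT and 1.68 ± 0.10 in mta, and ECT6 had log2 fold changes of -2.25 ± 0.25 and -2.38 ± 0.28. Between genotypes 1 reader, ECT2, was higher in mta in control at 0.48 ± 0.11 (8.5% of all genes were higher). In drought 0 were higher and 5 lower (26.6% and 26.1% of all genes), ECT8 at -0.91 ± 0.10 and ECT3 at -0.72 ± 0.10. The drought effect was lower in mta for 5 readers and higher for 0, against 18.0% and 19.6% of all genes. ECT3 differed by -0.94 ± 0.14 and ECT8 by -0.93 ± 0.15.

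Of 5 ALKBH genes, which encode demethylases of the eraser family, 3 had enough reads for a test. With drought 1 rose in WT, ALKBH10B at 0.52 ± 0.13, and all 3 rose in mta, ALKBH9B at 0.69 ± 0.26 and ALKBH10B at 0.69 ± 0.12 among them, where 32.6% of all genes rose in WT and 35.1% in mta. In drought 2 were higher in mta than in WT, ALKBH9C at 1.03 ± 0.18 and ALKBH10B at 0.32 ± 0.12 (26.6% of all genes were higher).

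S-adenosylmethionine is the methyl donor of the writers, and 11 genes of its synthesis and recycling were tested. In WT 2 rose and 6 fell with drought, and in mta 1 rose and 8 fell, with medians of -0.80 and -0.91, where 67.9% and 70.3% of all genes changed and 35.3% fell in each genotype. The methionine synthase MS1 had log2 fold changes of -1.99 ± 0.15 and -2.49 ± 0.16. In WT the S-adenosylmethionine synthetase MAT4 was at -1.94 ± 0.09, and in mta the methionine synthase MS2 was at -2.32 ± 0.13. Watered mta leaves had 5 of the 11 higher and 0 lower than WT, SAM2 by 0.65 ± 0.09 and SAM1 by 0.58 ± 0.08, against 8.5% and 9.28% of all genes. In drought 2 were higher and 3 lower in mta (26.6% and 26.1% of all genes), MS2 at -0.71 ± 0.14 and MAT3 at 0.53 ± 0.11. The drought effect was lower in mta for 5 and higher for 0 (18.0% and 19.6% of all genes), MS2 by -0.98 ± 0.18 and SAM1 by -0.73 ± 0.12.

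Across the 12 mRNA libraries the members did not move as a block. Pearson correlations of log2 CPM between members ran from -0.86 for VIR with HIZ1 to 0.77 for HAKAI with FIO1. MTA and MTB had r = 0.17, MTA and HAKAI 0.72, and MTB and VIR 0.76. Among 15150 genes, those whose levels followed MTA most closely were AT3G55430 (r = 0.97), AT1G45000 (0.96), TIC21 (0.96), AT1G80380 (0.95) and SMO2-1 (0.95). AT3G55430 averaged 202.5 CPM in WT control, 304.7 in WT drought, 94.5 in mta control and 99.3 in mta drought. The closest to MTB were AT2G19390 (0.93), AT3G14067 (0.92), AT3G27325 (0.90), MOM (0.90) and PRP40A (0.89). Like MTB, each of these had its lowest group mean in mta drought, where long genes were lower than in WT. These correlations are descriptions over libraries that share groups and depth, and the part of gene length in them was not tested.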

How the data were processed

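Gene counts are raw counts deposited by the authors, made with featureCounts 2.0.1 (mRNA, GMUCT) or 2.0.3 (polysomal) on whole TAIR10 gene spans, per the file headers. FastQC, Trim Galore, cutadapt, STAR, MACS2, bedtools and SAMtools were used per the submitters' processing notes. Of low polysomal counts 95.5% to 96.8% were even, so reads there may have been counted in pairs. Peak lists were deposited for each library and strand, with a fold enrichment (ratio), −log10 p and −log10 q per peak, and the background used for calling is not given in the sources used here. Noncoding RNA counts were not used here.

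Counts were tested in R 4.3.3 with edgeR 4.0.16 (filterByExpr with minimum count 10 and minimum total 15, TMM scaling, quasi-likelihood F test, 1 mean per group). Association measures used 1 model over 24 libraries. The fitting code was tested on simulated data. Alternatives were DESeq2 1.42.0, RLE scaling, no filter, a replicate block, organelle genes left out, removal of the gene span trend, each library left out and stricter peak rules. Peaks were joined to genes by at least 1 base on the same strand and merged across libraries in Python 3.11.15. Of peaks, 97.1% overlapped a gene on the strand of their list and 11.1% one on the other strand. Genes named beside the members are ABI3, at most 2 genes of each other list per mRNA comparison (past the threshold, largest change), the highest tissue marker of each list and the 5 genes most correlated with MTA and with MTB. The members and lists were chosen with earlier results of these data known.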

Additional observations from a re-analysis of the deposited data

Results flagged for a closer look

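The drought effect differed between the genotypes, by a test of the difference itself (edgeR's interaction term, mta minus WT), for 5 members in mRNA, 2 in polysomal RNA and 1 in polysome association. Of all genes tested, 37.6% differed in mRNA, 45.4% in polysomal RNA and 9.59% in polysome association. In mRNA the difference was -0.69 for MTB (0.14 in WT, -0.55 in mta), -1.01 for HAKAI (0.74 and -0.27), -1.37 for HIZ2 (0.77 and -0.60) and -1.21 for FIO1 (0.52 and -0.69). For HIZ1 it was 0.59 (0.25 in WT and 0.84 in mta). In polysomal RNA the difference was -0.65 for MTA (0.72 in WT, 0.07 in mta) and -0.72 for HIZ2 (1.98 and 1.26). In polysome association it was 0.90 for HAKAI (0.21 in WT, 1.11 in mta). Genes longer than most had lower mRNA in mta drought, and with that trend removed the mRNA difference was -0.33 for MTB, -1.16 for HAKAI, 0.54 for HIZ1, -0.91 for HIZ2 and -1.23 for FIO1. The MTB difference was then not past the threshold.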

How the results depend on the processing

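Removing the gene span trend turned 5 VIR results: mRNA in mta against WT in drought to 0.68 (adjusted p = 9e-05, from -0.15), polysomal drought effects to -0.54 in WT and -0.19 in mta, and polysome association drought effects to -0.025 in WT and -0.12 in mta. It also moved the mRNA count for drought in WT from 3 to 6, association for drought in WT from 3 to 1, and the uncapped share from 2 to 1 for drought in mta and from 1 to 0 for mta against WT in drought. Over all genes, calls for drought in WT went from 12000 to 12424 in mRNA and from 3828 to 2541 in association. With no filter on low counts the mRNA count for drought in WT was 5, association for mta against WT in control 1, and the uncapped share 1 for drought in WT, 2 for mta against WT in drought and 1 for the difference of effects. With organelle genes left out the uncapped share was 1 for drought in each genotype, 2 for mta against WT in drought and 1 for the difference, which was also 1 with RLE scaling and with DESeq2. These settings moved the median over all genes by at most -0.15 (uncapped share, drought in WT, no filter). RLE scaling moved the association medians by -0.10 in WT and -0.11 in mta and turned the share of upward calls over all genes from 63.1% to 45.9% in WT, and both HIZ2 calls held there. The causes were not tested. Leaving out 1 library at a time gave 3 to 6 members for the mRNA difference of effects. For association it gave 1 to 3 for drought in WT, 0 to 1 for mta against WT in control and 0 to 1 for the difference. For the uncapped share it gave 0 to 1 for drought in WT, 0 to 2 for drought in mta, 0 to 2 for mta against WT in drought and 0 to 1 for the difference.

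Members with an m6A peak fell to 5 in WT control, 2 in mta control and 1 in mta drought at a −log10 q of at least 10, and to 3 in mta drought when all 3 libraries had to hold the peak. Leaving out 1 mta drought library gave 3 to 5. Shares of all genes under these other peak rules were not computed, so these counts cannot be set against the background. With the replicate block 4 members were called in mRNA for drought in WT against 3 without it, MTA being added, and of 90 member results 88 were on the same side of the threshold. Labels name no pairs, and residuals of libraries with the same number correlated between -0.16 and 0.16, so the numbers were not used as pairs. In the shallowest mRNA library FIO1 had 10 reads, FIP37 21 and MTA 27, the lowest of the members, and intervals cover counting error and library spread only.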

Other observations

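Drought calls in polysome association were also counted for the reader and methyl donor genes. In mta 6 of 12 readers rose and 0 fell, and of 11 S-adenosylmethionine cycle genes 7 rose and 1 fell. Of all genes 35.6% changed there (21.6% up, 14.0% down). In WT the counts were 1 and 0 for readers and 4 and 1 for the cycle, where 18.8% changed (11.8% up, 6.93% down). Over all genes in mta, upward calls went from 60.7% to 49.9% of calls with RLE scaling. Removing the length trend cut the calls there from 7267 to 4757. Counts of these lists under those settings were not made.

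Peaks on the strand opposite to a member were called over HIZ2 in 4 libraries, MTB in 4 and MTA in 2. Each of these genes overlaps a neighbour on that strand, and whether the peaks lie in the shared bases was not tested.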
